A study of Bos taurus with 24 samples.

Results

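The early mevalonate pathway enzymes are 7 genes, ACAT2, HMGCS1, MVK, PMVK, MVD, IDI1 and FDPS, chosen by symbol because their products carry acetyl-CoA to farnesyl diphosphate, and all 7 were found among the 24621 genes counted. Expression was measured by RNA sequencing of 24 early bovine blastocysts, with 1 library made from each. The embryos derived in vivo (5 male and 3 female, A in the sample labels) were flushed from superovulated Holstein cows, which the methods give as 3 animals. The embryos produced in serum-containing medium (3 male and 5 female, B) came from slaughterhouse oocytes matured with 20% fetal bovine serum and cultured in synthetic oviduct fluid with 5% of that serum. The embryos produced in serum-free medium (5 male and 3 female, C) were matured with 20 ng/mL epidermal growth factor and cultured with 0.4% bovine serum albumin and insulin (5 ug/mL), transferrin and selenium. All 3 groups shared 1 Holstein sire, and only blastocysts of the best morphological grade were kept. The in vitro embryos were collected between day 6 and day 7. The methods give the in vivo flushing as 7 days after insemination, so embryo age may differ between the groups. The cow and the in vitro experiment behind each embryo are not given in the sources used here, and no comparison within a cow or an experiment was made.

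The mevalonate pathway makes the isoprenoid units from which cells build cholesterol, dolichol, ubiquinone and the lipid anchors of small GTPases. A thiolase joins acetyl-CoA units, HMG-CoA synthase adds another, and the product is reduced to mevalonate. Mevalonate is then phosphorylated, decarboxylated to isopentenyl diphosphate, isomerised, and condensed to farnesyl diphosphate, where the sterol branch and the non-sterol branches part. The genes of the pathway are known targets of SREBP2, a membrane-bound transcription factor that is released when sterols in the endoplasmic reticulum are low.

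The embryos held 3253051 to 9000447 exon counts each (median 4454031). Levels are given as TMM-normalized CPM, a gene's counts divided by the embryo's effective total and scaled by the same constant in each embryo. The effective total is the total count times the embryo's TMM factor, so it can lie below or above the total count. It was 3895530 against 4569863 counts in the serum-free male C7, which raises its levels. In the serum female B4 it was 5591650 against 5086048 counts, which lowers them. Since gene length was not used, levels are compared between embryos and not between genes. The Y-linked gene DDX3Y had 101 to 902 counts in the male embryos and 0 to 2 in the female embryos. Trophectoderm markers, 7 of 8 of which were in the table, summed to between 7485 and 14663 CPM in vivo, between 319 and 5062 CPM with serum and between 4926 and 28267 CPM without serum. KRT8 and KRT18 made up most of the in vivo sum, with medians of 8634 and 1801 CPM, against 733 and 178 CPM with serum. CDX2, GATA3, GATA2 and IFNT also had lower medians with serum than in vivo. TFAP2C did not separate, with a median of 225 CPM with serum and 228 CPM in vivo. Inner cell mass markers summed to 434 to 586, 518 to 868 and 287 to 585 CPM, and primitive endoderm markers to 342 to 589, 27.1 to 231 and 128 to 393 CPM, in the same order of groups. PDGFRA made up most of the primitive endoderm sum, with a median of 470 CPM in vivo and 79.6 CPM with serum. GATA6 of the same list had medians of 17.2 CPM in vivo and 20.1 CPM with serum. Markers of cumulus and granulosa cells summed to at most 35.6 CPM, those of sperm at most 12.8 CPM and those of blood at most 8.10 CPM in any embryo, and PTX3, a defining cumulus gene, was at 0 in all 24. One serum-free embryo, the male labelled C7, had the highest level of all 7 enzymes. It also held the highest trophectoderm sum of its group, 28267 CPM, in a group whose highest KRT8 level was 23017 CPM. The calls that rest on it are given with and without it, and the part of the trophectoderm markers in these results was not tested.

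**Figure D1:**
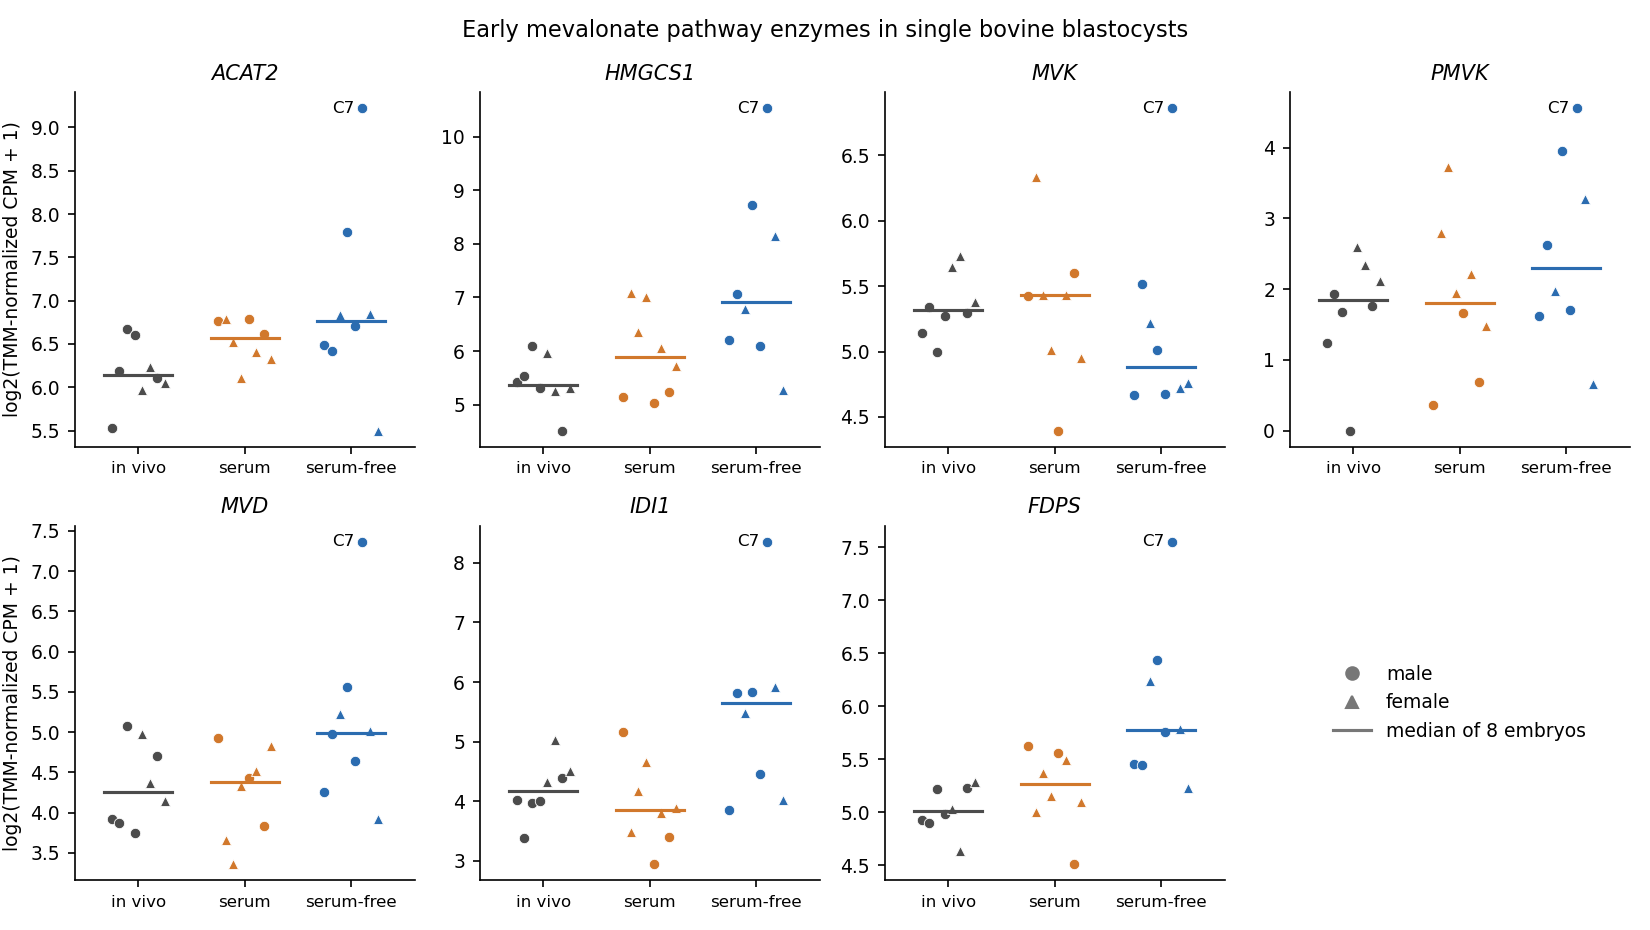
Level of each of the 7 enzymes in each of the 24 embryos as log2(TMM-normalized CPM + 1), by condition on the x axis, with circles for males, triangles for females and a line at the median of 8 embryos. The serum-free embryo C7 is the highest of the 24 in all 7 panels, and in FDPS 7 of 8 serum-free embryos lie above the highest in vivo derived embryo.

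Between serum-free and in vivo derived embryos, HMGCS1, IDI1 and FDPS rose 7.35-fold, 3.98-fold and 2.25-fold in serum-free medium. ACAT2 and MVD had positive changes that missed the threshold, MVK had a change near 0, and PMVK was too low to be tested. Thus 3 of the 6 members tested were called, which required an adjusted p-value under 0.05 with at least a 2-fold change (edgeR's quasi-likelihood test, Benjamini-Hochberg adjustment over 7314 genes), all of them higher, where 2.2% of all genes tested passed in either direction and 1.61% were higher. The median log2 fold change of the 6 members was 1.20, against 0.0030 over all genes tested. In a whole embryo, a different number of cells of a given type and a different amount of RNA per cell cannot be told apart.

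ACAT2, the cytosolic thiolase that condenses acetyl-CoA at the head of the pathway, ranged from 45.1 to 101 CPM in vivo (median 69.9), from 67.8 to 109 CPM with serum (median 94.0) and from 44.3 to 596 CPM without serum (median 108). In serum-free medium 5 of 8 embryos exceeded the highest in vivo derived embryo and 1, the female C10, fell just below the lowest, so the groups overlapped. The log2 fold change of serum-free over in vivo was 1.22 ± 0.38 (SE, n = 8 and 8, adjusted p = 0.0590 in edgeR's quasi-likelihood test), which missed the threshold. By symbol in the current RefSeq annotation (ARS-UCD2.0), ACAT2 overlaps TCP1, a chaperonin subunit, and the library kit does not mark strand. TCP1 itself had a log2 fold change of 0.09 between these groups (adjusted p = 0.754).

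HMGCS1, the cytosolic HMG-CoA synthase, had the highest fold change of the 6 members tested. Its level was between 21.9 and 67.3 CPM in vivo (median 40.3), between 31.6 and 134 CPM with serum (median 58.9) and between 37.9 and 1482 CPM without serum (median 121). The serum-free embryos above the in vivo range were C1 (72.9 CPM), C3 (109 CPM), C2 (132 CPM), C8 (284 CPM), C4 (424 CPM) and C7 (1482 CPM), while C6 (67.0 CPM) and C10 (37.9 CPM) lay inside it. The mean in vivo was 44.1 ± 14.4 CPM and that without serum 326 ± 485 CPM (SD, n = 8 in each group), the standard deviation exceeding the mean in the latter. On the log2 scale the rise was 2.88 ± 0.59 (SE, adjusted p = 0.0062).

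MVK and PMVK add phosphates to mevalonate in succession. MVK ranged over 30.9 to 52.0 CPM in vivo (median 38.9), 20.0 to 79.5 CPM with serum (median 42.1) and 24.4 to 115 CPM without serum (median 28.6). In serum-free medium C7 alone lay above the in vivo range and 4 embryos, C1, C6, C8 and C10, lay below it, and the log2 fold change was 0.02 with a 95% interval of -0.57 to 0.61 (adjusted p = 0.973), which lies within a 2-fold change in either direction. PMVK was close to the limit of detection, at 0 to 5.07 CPM in vivo, 0.28 to 12.2 CPM with serum and 0.58 to 22.6 CPM without serum, the highest levels being those of C7 (22.6 CPM) and C4 (14.5 CPM). With every detected gene admitted to the test, its log2 fold change was 1.44 (adjusted p = 0.275).

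MVD decarboxylates the diphosphate of mevalonate to isopentenyl diphosphate. It ranged from 12.4 to 32.7 CPM in vivo (median 18.2), from 9.27 to 29.3 CPM with serum (median 19.9) and from 14.2 to 164 CPM without serum (median 30.8), and only C3, C4 and C7 exceeded the in vivo range. Its log2 fold change of 1.14 ± 0.41 (SE) did not pass (adjusted p = 0.101).

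IDI1, the isomerase that interconverts the isoprenoid units, lay between 9.46 and 31.8 CPM in vivo (median 17.2), between 6.72 and 34.9 CPM with serum (median 13.4) and between 13.4 and 326 CPM without serum (median 49.4). The serum-free embryos divided into 3 at in vivo levels, C1 (13.4 CPM), C10 (15.3 CPM) and C6 (21.1 CPM), a set of 4 between 43.7 and 59.3 CPM, and C7 at 326 CPM. IDI1 thus rose by 1.99 ± 0.52 on the log2 scale (SE, adjusted p = 0.0277).

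FDPS, the synthase of farnesyl diphosphate, exceeded the in vivo range in more serum-free embryos than any other member. Its range was 23.9 to 38.1 CPM in vivo (median 31.2), 21.8 to 48.5 CPM with serum (median 37.5) and 36.5 to 187 CPM without serum (median 53.7). All 8 serum-free embryos exceeded the in vivo median and 7 of 8 the in vivo maximum, C10 with 36.5 CPM being the other. FDPS rose by 1.17 ± 0.27 on the log2 scale (SE, adjusted p = 0.0162).

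Without C7, HMGCS1 was the only member still called between serum-free and in vivo derived embryos, with a log2 fold change of 1.88 ± 0.39 (SE, adjusted p = 0.0072). FDPS kept an adjusted p-value of 0.0156 but its log2 fold change of 0.81 was under the 2-fold limit, and IDI1 had 1.05 (adjusted p = 0.0609). ACAT2 had 0.60 (adjusted p = 0.126), MVD 0.49 (adjusted p = 0.311) and MVK -0.40 (adjusted p = 0.213), the sign of MVK having changed. IDI1 was also no longer called without the in vivo derived male A2 (1.90, adjusted p = 0.0510), whereas ACAT2 was called when C1, C3 or C10 was left out. The number of all genes called was 161 with C7 and 163 without it. The mean level without C7 was 161 ± 141 CPM for HMGCS1, 37.7 ± 20.4 CPM for IDI1 and 55.6 ± 18.1 CPM for FDPS (SD, n = 7), against 44.1 ± 14.4, 18.4 ± 6.62 and 31.9 ± 4.78 CPM in vivo (SD, n = 8).

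**Figure D2:**
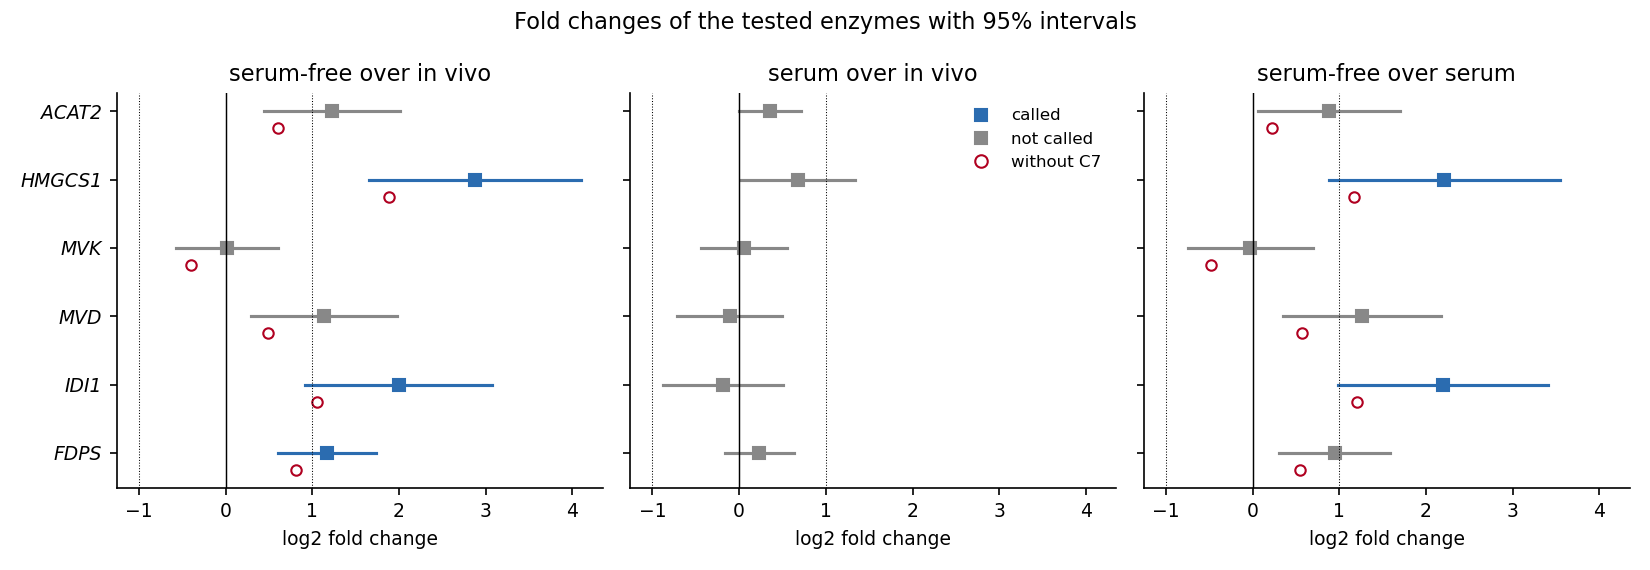
Log2 fold change on the x axis of the 6 tested enzymes in 3 comparisons, as squares with 95% intervals from all 16 embryos, blue where called, and as open circles without the serum-free embryo C7. Dotted lines mark a 2-fold change. HMGCS1 moves from 2.88 to 1.88 between serum-free and in vivo derived embryos when C7 is left out, and no square is called between serum and in vivo.

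The elevation was shared unequally among the serum-free embryos. C7 exceeded the highest in vivo derived embryo in 7 of 7 members, C4 in 6, C3 and C8 in 5, C2 in 4, C1 and C6 in 2 and C10 in 0, whereas over the 7314 genes tested between 14.2% and 22.9% lay above the highest in vivo derived embryo in each of these 8. C7 was also the highest of all 24 embryos in 7 of 7 members, 13 of 32 other genes of the pathway and 10.9% of the 7557 genes with sufficient counts in at least 1 condition. C10 had the lowest level of its group in ACAT2, HMGCS1, PMVK, MVD and FDPS. Among the embryos produced with serum, between 0 and 4 members exceeded the in vivo range in each, the female B2 having 4, and between 15.03% and 31.6% of all genes did.

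**Figure D3:**
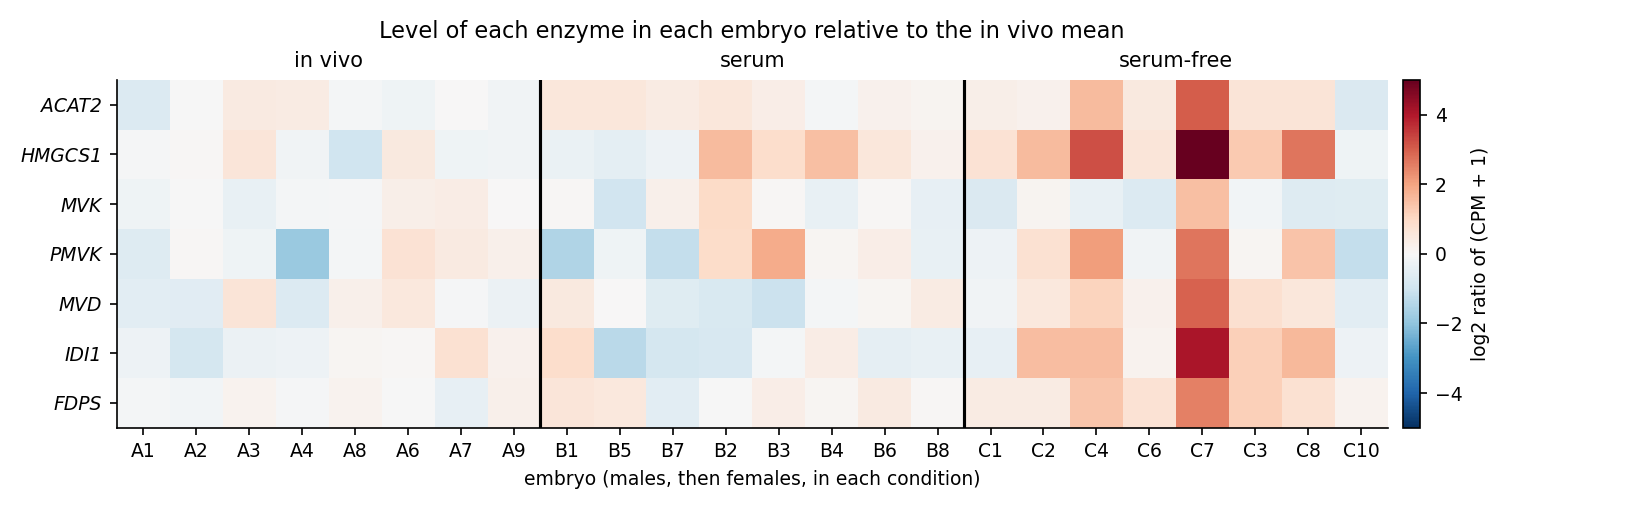
Log2 ratio of (CPM + 1) in each embryo to the in vivo mean of each enzyme, with embryos on the x axis, enzymes on the y axis and red for higher. The column of C7 is the reddest in each row, followed in HMGCS1 by C4 and C8, whereas C10 is near or below the in vivo mean.

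Embryos produced in serum-containing medium were set against the in vivo derived embryos in the same way. None of the 6 members tested was called (edgeR's quasi-likelihood test), where 13.8% of the 7339 genes tested were, and edgeR's exact test and DESeq2 likewise called 0 members. HMGCS1 was the 1 member with an unadjusted p-value under 0.05, with a log2 fold change of 0.68 ± 0.32 (SE, adjusted p = 0.112). The sexes were not balanced between these groups. In 1 quasi-likelihood fit over all 24 embryos, which weights the sexes equally, HMGCS1 had 0.34 (adjusted p = 0.640). In the main test ACAT2 had 0.35 ± 0.17 (SE, adjusted p = 0.123), FDPS 0.24 (adjusted p = 0.366), MVK 0.06, MVD -0.11 and IDI1 -0.18. The intervals of the 6 members together reached from -0.87 at the low end of IDI1 to 1.34 at the high end of HMGCS1, so a 2-fold rise was outside the 95% interval of ACAT2, MVK, MVD, IDI1 and FDPS. PMVK, with every detected gene admitted, had a log2 fold change of 0.44 (adjusted p = 0.722). Trophectoderm marker sums, made up mostly of KRT8 and KRT18 in vivo, were lower in every embryo of this group than in any in vivo derived embryo. TFAP2C of the same list did not separate, with medians of 225 CPM with serum and 228 CPM in vivo. The part of these markers in the values above was not tested.

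The media themselves were also compared. The groups differ in oocyte maturation as well as in embryo culture, and the parts of these cannot be told apart. HMGCS1 (log2 fold change 2.21 ± 0.64, SE, adjusted p = 0.0259) and IDI1 (2.20 ± 0.58, SE, adjusted p = 0.0183) were higher in serum-free than in serum-containing medium. These were 2 of 6 members tested, where 8.91% of 7181 genes were called and 5.36% were higher. Males and females were not balanced between the media, and with sex as a covariate IDI1 was still called and HMGCS1 was not. The interaction of sex and culture was called for 0 of 6 members (0% of 8384 genes). For HMGCS1 it was 3.04 with a 95% interval of 0.46 to 5.61 (unadjusted p = 0.0235, adjusted p = 0.9997, edgeR's quasi-likelihood test). FDPS had an adjusted p-value of 0.0406 at 0.95, short of 2-fold, MVD had 1.26 ± 0.44 (SE, adjusted p = 0.0531), ACAT2 0.88 (adjusted p = 0.124) and MVK -0.02 with a 95% interval of -0.74 to 0.69. Without C7 none of the 6 was called, HMGCS1 having 1.17 (adjusted p = 0.105) and IDI1 1.21 (adjusted p = 0.0635), and the number of all genes called went from 640 to 393. Without the serum male B7, HMGCS1 had 2.10 (adjusted p = 0.0519) and IDI1 alone was called. FDPS was called in addition when C1, C2 or C10 was left out, and MVD when C1, C10, B1 or B8 was. Each group of embryos stands in 2 of the 3 comparisons, which are not independent.

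Each sex was examined separately, with 5 male serum-free embryos against 5 male in vivo derived embryos. HMGCS1 was called in males with a log2 fold change of 3.35 ± 0.74 (SE, adjusted p = 0.0397), 1 of 6 members where 0.966% of 7662 genes were called. IDI1 had 2.67 (adjusted p = 0.0670) and FDPS 1.36 (adjusted p = 0.0722). FDPS in male embryos was 29.4, 28.9, 36.2, 30.7 and 36.6 CPM in vivo and 42.9, 42.6, 85.6, 53.2 and 187 CPM in serum-free medium, so the male groups did not overlap, a separation that 2.55% of genes showed in this direction. Without C7, HMGCS1 was still called in males at 2.02 ± 0.47 (SE, adjusted p = 0.0310 in edgeR's quasi-likelihood test), with IDI1 at 1.30 (adjusted p = 0.0893) and FDPS at 0.80 (adjusted p = 0.0871). The HMGCS1 call in males was lost when any 1 of the 5 in vivo derived males, or C2 or C4, was left out.

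In females, 3 against 3 embryos, 0 of 6 members were called in edgeR's quasi-likelihood test (0.304% of 8211 genes), with 3 at an unadjusted p-value under 0.05, and DESeq2 called 0. HMGCS1 had a log2 fold change of 1.65 ± 0.56 (SE, adjusted p = 0.239) and FDPS 0.82 ± 0.33 (SE, adjusted p = 0.303). MVK was 49.0, 52.0 and 40.7 CPM in the in vivo derived females and 26.0, 36.1 and 25.4 CPM in the serum-free females, lower without overlap, at a log2 fold change of -0.69 ± 0.29 (SE, adjusted p = 0.319). A separation without overlap was seen in 21% of genes with 3 females against 3. The difference between the sexes in the response to serum-free medium was not called for any member (interaction of sex and culture, 0 of 6, 0% of 8425 genes), the estimates running from 0.54 for FDPS to 1.96 for IDI1 with intervals that all included 0. Without C7 they ran from -0.015 for FDPS to 0.60 for IDI1.

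In serum-containing medium, the levels of HMGCS1 in males and females did not overlap. They were 34.4, 31.6 and 36.5 CPM in the males B1, B5 and B7, and 134, 80.9, 129, 65.7 and 52.0 CPM in the females B2, B3, B4, B6 and B8. Such a separation was seen in 6.07% of 7534 genes in either direction. The log2 fold change of male over female was -1.45 ± 0.39 (SE, adjusted p = 0.339 in edgeR's quasi-likelihood test), so the difference failed the correction. DESeq2 called it. Against the in vivo derived embryos of the same sex, the log2 fold change with serum was -0.34 in males (adjusted p = 0.516) and 1.04 in females (adjusted p = 0.180), none of the 6 members being called in either sex (13.3% of 7762 genes in males and 0.418% of 8138 in females), with 0 members in males and 1 in females at an unadjusted p-value under 0.05, and 0 called by DESeq2. Within conditions, 0 of 6 members were called between males and females in vivo (0.653% of 7963 genes), with serum (0.173%) or without serum (0.139% of 7918 genes), and the only member with an unadjusted p-value under 0.05 was HMGCS1 with serum. In vivo, MVK was higher in the 3 females (40.7 to 52.0 CPM) than in the 5 males (30.9 to 39.6 CPM) without overlap, at a log2 fold change of -0.39 (adjusted p = 0.457), where 9.8% of genes were without overlap.

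The spread of the members was wider among serum-free than among in vivo derived embryos, a description with no test. The standard deviation of log2(CPM + 1) was 3.53 times the in vivo value for HMGCS1, 3.49 times for FDPS, 3.07 times for ACAT2 and MVK, 2.99 times for IDI1, 2.04 times for MVD and 1.62 times for PMVK, where the median over 7314 genes was 1.25. Without C7 the ratios were 2.50, 2.04, 1.89, 1.34, 1.89, 1.10 and 1.38 in the same order of genes (ACAT2 before MVK), and the median 1.17. With serum the ratios ran from 0.69 for ACAT2 to 2.33 for MVK, and the median over all genes was 1.67.

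The members also varied together among the serum-free embryos. With C7 left out, Pearson's r of log2(CPM + 1) was above 0 in 21 of 21 pairs, from 0.15 to 0.99 with a median of 0.84 over 7 embryos, and 1 pair passed after adjustment over 63 (exact permutation test). With all 8 embryos the median was 0.89 and 16 pairs passed by Pearson's r and 8 by Spearman's rho. The pair of HMGCS1 and PMVK had r = 0.98 and rho = 0.98 (adjusted p = 0.0031 and 0.0125, exact permutation test), and r = 0.98 with the 2 embryos farthest from the median of HMGCS1 left out. ACAT2 and FDPS had r = 0.97, and 0.87 without the 2 farthest. The correlations of MVK ran from r = 0.66 with PMVK and 0.76 with HMGCS1 to 0.89 with IDI1 and 0.90 with MVD. Without the 2 farthest, r was -0.05 for ACAT2 and MVK, 0.26 for HMGCS1 and MVK and 0.30 for MVK and PMVK. It was 0.57 for MVK and IDI1, 0.67 for MVK and MVD and 0.76 for MVK and FDPS. Spearman's rho of MVK ran from 0.33 with ACAT2 to 0.67 with MVD (adjusted p = 0.674 and 0.262, exact permutation test). Over the 21 pairs the median r without the 2 farthest was 0.76, with 20 above 0. In vivo the median was 0.13 with 12 of 21 pairs above 0, and with serum 0.09 with 11 of 21, and 0 of 21 pairs passed in either. The embryos of 1 condition share their laboratory source, and the difference in correlation between conditions was not tested. The correlation of pairs of other genes within these embryos was not computed. These counts therefore do not show whether varying together is particular to the members.

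The other genes of the sterol and isoprenoid pathways comprised 47 symbols, of which 43 were in the table and 32 were tested between serum-free and in vivo derived embryos. In the branch from squalene to cholesterol, 7 of 7 tested genes had a log2 fold change above 0, where 50.3% of all genes did, with a median of 1.15, and 4 were called higher. FDFT1, which makes squalene, had 2.06 ± 0.35 (SE, adjusted p = 0.0020), SQLE, which epoxidises squalene, 1.30 (adjusted p = 0.0324) and NSDHL, which removes sterol methyl groups, 1.15 (adjusted p = 0.0454). Without C7, FDFT1 was still called at 1.64 (adjusted p = 0.0010), whereas SQLE at 0.82 (adjusted p = 0.0580) and NSDHL at 0.89 (adjusted p = 0.0847) were not. LSS (1.15, or 0.76 without C7), DHCR7 (1.02, or 0.41) and EBP (0.59, or 0.32) did not pass.

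Of the 9 genes of sterol sensing and transport tested, 0 were called in edgeR's quasi-likelihood test, with a median of -0.10, and 1 had an unadjusted p-value under 0.05. INSIG1, which retains the SREBP complex in the endoplasmic reticulum, and SREBF2, which encodes SREBP2, were below the count limit. INSIG1 had a median of 1.64 CPM in vivo, 4.95 CPM with serum and 13.2 CPM without serum, or 9.84 CPM without C7. The median of SREBF2 was 3.70 CPM in vivo, 4.10 CPM with serum and 3.05 CPM without serum.

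In the non-sterol branches 11 genes were tested, 0 were called and 0 had an unadjusted p-value under 0.05 (edgeR's quasi-likelihood test), and the median was 0.02, GGPS1, which makes geranylgeranyl diphosphate from farnesyl diphosphate, having 0.02 and FNTA, a prenyltransferase subunit, -0.13. Of the 3 tested paralogs and ketone body genes, 0 were called in the same test and 1 had an unadjusted p-value under 0.05, the mitochondrial thiolase ACAT1 with -0.33 (adjusted p = 0.196), and ACLY, which supplies cytosolic acetyl-CoA, had 0.22. MMAB, the neighbour of MVK by order in RefSeq, had 0.67 (adjusted p = 0.166). Over the 32 genes of the list 4 were called higher and 0 lower.

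With serum, 2 of the 32 tested were called, both higher than in vivo, where 13.8% of all genes tested were called. FDFT1 was among them (log2 fold change 1.30 ± 0.18, SE, adjusted p = 0.00014). FDFT1 ranged from 26.8 to 54.7 CPM in vivo and from 85.0 to 161 CPM with serum, without overlap, which 2.94% of genes showed in this direction. Between the media, 2 of 29 were called, SQLE with 1.19 (adjusted p = 0.0358) and ACLY with 1.11 (adjusted p = 0.0194), both higher in serum-free medium, where 8.91% of all genes tested were called and 5.36% were higher. Without C7 0 of 30 were called.

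**Figure D4:**
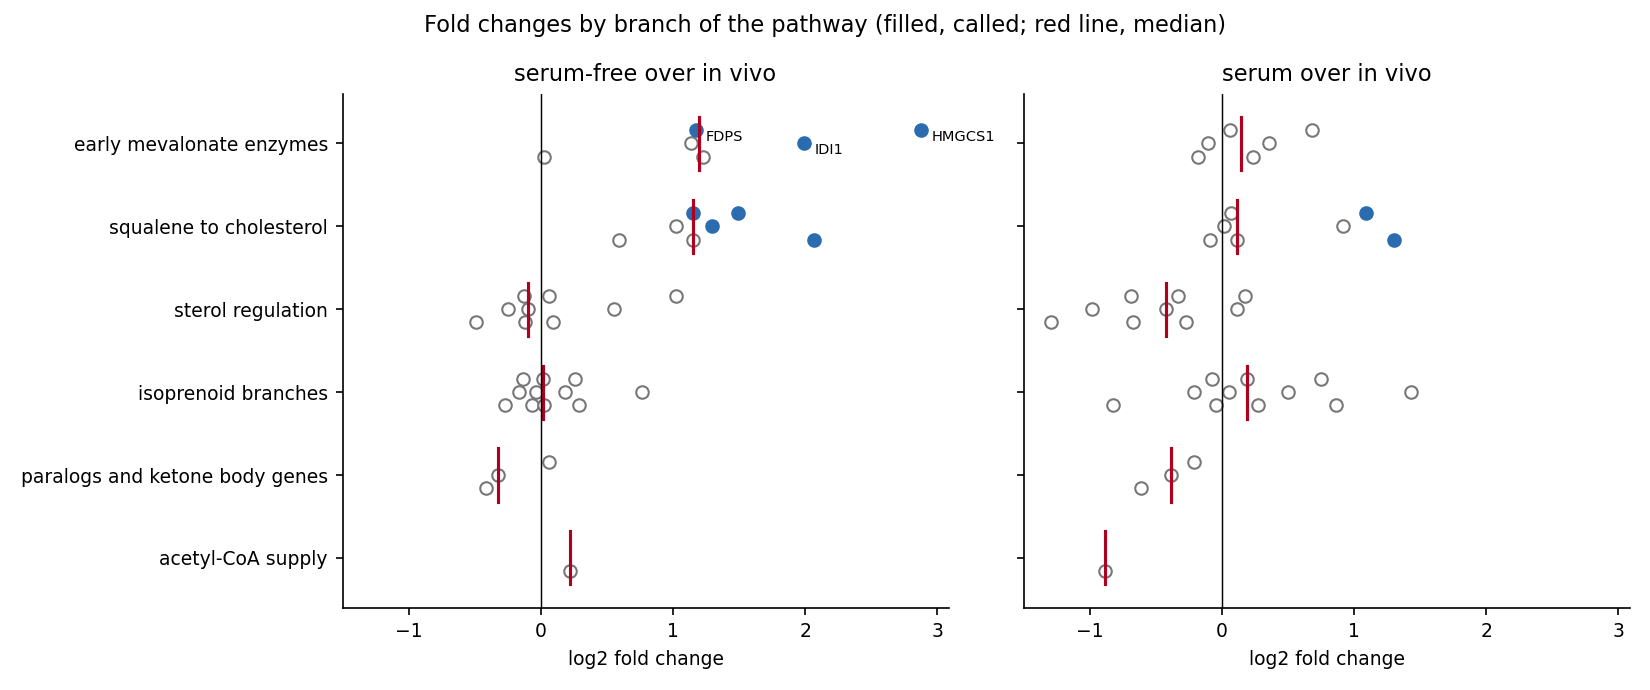
Log2 fold change on the x axis of the tested genes in each branch of the pathway for serum-free over in vivo and serum over in vivo, filled where called, with names on the called early enzymes and a red line at the median of each branch. Serum-free embryos have filled points among the early enzymes and the genes from squalene to cholesterol, and the median of the non-sterol branches is 0.02.

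The genes most like each member in level over the 24 embryos were listed by Pearson's r of log2(CPM + 1), as a description over embryos of 3 conditions. FDPS was most like MANF (r = 0.91, or 0.81 without C7), a secreted factor of the endoplasmic reticulum, CYB5B (r = 0.85) and SSR2 (r = 0.84), and ACAT2 was most like MANF (r = 0.83), FDPS (r = 0.83) and C7H19orf10 (r = 0.80). HMGCS1 was most like HSP90B1 (r = 0.87), a chaperone of the endoplasmic reticulum, and SQLE (r = 0.84), and IDI1 was most like SQLE (r = 0.87), MVD (r = 0.82) and NUCB2 (r = 0.82). MVD was most like FDPS (r = 0.83), IDI1 and NUCB2, and PMVK most like HMGCS1 (r = 0.78), NIPSNAP3A (r = 0.77) and CALML5 (r = 0.70). MVK had its nearest genes at r = 0.62 to 0.63, YES1 and DNAJB9 among them. Of the 21 places on these lists 5 were held by other members and 3 by other genes of the pathway, C7 was the highest embryo in 20 of them, and r without C7 ran from 0.41 to 0.81.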

How the data were processed

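Single blastocysts were sequenced from 1 ng of RNA after SMARTer amplification without strand information. After trimming, the authors aligned the reads with CLC Genomics Workbench to the bovine build UMD 3.1, and they deposited raw counts of fragments mapped uniquely to exons per gene, without normalization. All 24 columns were matched to embryos by name. Condition and sex came from the labels.

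The quasi-likelihood test of edgeR 4.0.16 with TMM normalization was run in R 4.3.3, separately for the groups compared, over genes with at least 15 counts in every embryo of at least 1 group. A gene was called when it changed at least 2-fold and its Benjamini-Hochberg adjusted p-value was under 0.05. Folds are written as the first-named group over the second. Standard errors are approximate, from the estimate and its F statistic. CPM used TMM factors over all embryos, and correlations and spreads used log2(CPM + 1). Pairs of members were tested with two-sided exact permutation tests within each condition. The study's own test was edgeR's exact test, an alternative here beside DESeq2 1.42.0, its size factors, other count limits, no fold limit, 1 fit over 24 embryos, thinned counts, sex as a covariate, a replicate block and leaving out each embryo. The fits were tested on simulated data.

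The members and the lists of pathway genes and cell type markers were chosen with earlier results of these data known. Named genes are the members, the pathway genes called between conditions, INSIG1, SREBF2 and the 3 genes most like each member, and some genes that this rule takes are not reported here. LSS, DHCR7, EBP, GGPS1, FNTA, ACAT1, MMAB and TCP1 were named after their values were seen. The annotation at hand has another build, so no coordinates are given and it served only for names, overlaps and neighbours of genes. P-values measure the spread between embryos, which may share a cow or an in vitro experiment, and PCR copies were not marked by molecular identifiers.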

Additional observations from a re-analysis of the deposited data

Results flagged for a closer look

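In serum-free medium the male embryo C7 lay far from the other 7 in 6 of the 7 members, its gap to the next embryo as a share of the group's range exceeding 0.526, the 95% critical value of Dixon's test for 8 samples. The share was 0.680 for ACAT2 (596 against 221 CPM), 0.732 for HMGCS1 (1482 against 424 CPM), 0.775 for MVK (115 against 44.8 CPM), 0.788 for MVD (164 against 46.0 CPM), 0.853 for IDI1 (326 against 59.3 CPM) and 0.674 for FDPS (187 against 85.6 CPM). In serum-containing medium the female B2 exceeded the same limit in MVK, with a share of 0.537 (79.5 against 47.6 CPM). These were 7 of 21 groups tested, and the members are not independent of each other. The limit's rate of about 1 in 20 holds for normally distributed values, which CPM need not be. The share of all genes past the limit was not computed, so the count is a description of these groups only. The count depends on the scale, since on log2(CPM + 1), a scale tried after the data were seen, 3 groups exceeded the limit, C7 in MVK (0.612), MVD (0.527) and IDI1 (0.542).

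For HMGCS1, the effect of serum over in vivo differed between males and females by -1.33 ± 0.51 (log2, SE) with an unadjusted p-value of 0.0186, and it did not pass the adjustment over all genes (edgeR's quasi-likelihood test, adjusted p = 0.845). The log2 fold change was -0.34 in males and 1.04 in females.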

How the results depend on the processing

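Between serum-free and in vivo derived embryos, where 3 members were called, DESeq2 called 5 (ACAT2 and MVD in addition) and 1 fit over all 24 embryos called 1 (HMGCS1). Between the media, where 2 were called, sex as a covariate left 1 (IDI1). In males, where 1 was called in serum-free medium, the exact test and DESeq2 each called 4, a limit of 1 count 2, and the embryos with shared label numbers, fitted without a block, 0. A limit of 1 count called 1 member in females (HMGCS1), and DESeq2 called 1 between males and females with serum (HMGCS1). Same-numbered embryos did not deviate together (r between -0.13 and 0.09, 0 of 7 pairs above 0.1 in each comparison, and the own number the best match in 2, 1 and 0 of 7). No pairing by number was seen in expression, but embryos of shared origin need not deviate together, so this cannot settle their origin. With the replicate block the calls were 1 between serum-free and in vivo (IDI1, 82 genes in all), 0 between the media (29 genes) and 0 in males (8 genes). Leaving out 1 embryo at a time gave 1 to 4 members between serum-free and in vivo, 0 to 4 between the media and 0 to 3 in males. The pairs of members that passed numbered 1 to 18 when 1 embryo was left out, the 1 being without C7, and 16 with either other scaling.

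Changes near 0 turned sign. MVK for serum-free over in vivo was -0.14 in the fit over 24 embryos, -0.027 with thinned counts and -0.089 with the block, and -0.40 to 0.12 with 1 embryo left out. MVK for serum over in vivo was -0.0019 with 15 counts in every embryo, -0.024 in the fit over 24 and -0.029 with sex as a covariate, and for serum-free over serum 0.020 with 15 counts in every embryo. With 1 embryo left out these ran from -0.12 to 0.19 and from -0.48 to 0.16, and for serum over in vivo MVD ran from -0.21 to 0.031 and IDI1 from -0.42 to 0.013. Of the alternatives for single members 435 kept direction and side of the threshold, 19 gained the call, 13 lost it and 19 turned sign. The cause was not tested.

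All genes called between serum-free and in vivo numbered 161, and 426 without a fold limit, 94 with 15 counts in every embryo and 65 in the fit over 24. Between serum and in vivo they numbered 1011, 2074 without a fold limit and 544 with 15 counts in every embryo, and between the media 640, 1171 and 366. In males the 74 became 199 with the exact test and 201 with DESeq2. Depth limits PMVK and INSIG1 most.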
